A study of Mus musculus with 4 samples.

Results

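The Snrpn-Ube3a domain is an imprinted region of mouse chromosome 7, described here by the binding of CTCF in hippocampus. It was taken as the stretch from 50 kb before the first to 50 kb after the last of 6 genes, Ube3a, Snrpn, Ndn, Magel2, Mkrn3 and Peg12 (chr7:59178750-62514510, mm10, 3.34 Mb). Every peak with its summit in that stretch was a member, which gave 40 of the 90278 CTCF sites on chromosomes 1 to 19 and X. The sites are numbered 1 to 40 along the chromosome, starting on the Ube3a side.

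Hippocampi of adult male mice aged 2 months were studied by chromatin immunoprecipitation and sequencing (ChIP-seq) with an antibody against CTCF. All animals were B6CASTF1/J, a first-generation hybrid of C57BL/6J and CAST/EiJ, and no group was treated or carried an engineered allele. There were 2 biological replicates, each a pool of 7 hippocampal samples with 2 technical libraries, for 4 libraries in all, and both pools carry the same donor entry in the labels. The spread between the replicates is therefore a spread between pools. The lists hold 1 signal per replicate and are not split by parental chromosome, and read depth is unknown. ChIP lists measure no expression, so the labelled tissue was not checked against marker genes.

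Imprinted genes are transcribed mainly from the chromosome of 1 parent. In this domain, whose human counterpart is lost in Prader-Willi and Angelman syndromes, Snrpn, Ndn, Magel2, Mkrn3 and Peg12 are expressed from the paternal chromosome, and Ube3a is expressed from the maternal chromosome in neurons. A long paternal transcript, Snhg14, runs from the Snrpn side across clusters of small nucleolar RNA (snoRNA) genes and into Ube3a as an antisense RNA. CTCF is a zinc-finger protein that binds a directional DNA sequence, and cohesin loops often end where such sequences point toward each other.

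Of the 7 sites of the domain with a peak-caller score (signal) over 500, 5 lay from Ndn to the Peg12 promoter. This stretch was marked out after the values had been seen. Sites over 500 made up 17.5% of the domain's sites and 23.2% of all sites. The 8 sites of the stretch each carried a close match to the CTCF core consensus of 12 bases. They are shown in order along the chromosome, each on the strand that carries the match, with the match in capitals (RefSeq, GRCm38.p6). Sequences and matches throughout are those of this assembly, and the CAST/EiJ sequence was not examined.
site 33 (chr7:62375830-62375870, minus strand): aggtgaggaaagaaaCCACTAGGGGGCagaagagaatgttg
site 34 (chr7:62382589-62382629, minus strand): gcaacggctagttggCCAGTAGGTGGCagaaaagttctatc
site 35 (chr7:62388475-62388515, minus strand): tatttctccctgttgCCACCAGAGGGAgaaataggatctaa
site 36 (chr7:62400275-62400315, minus strand): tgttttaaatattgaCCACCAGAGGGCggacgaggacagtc
site 37 (chr7:62428514-62428554, minus strand): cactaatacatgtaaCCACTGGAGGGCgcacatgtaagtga
site 38 (chr7:62433443-62433483, minus strand): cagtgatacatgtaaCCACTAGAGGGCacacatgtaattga
site 39 (chr7:62436541-62436581, plus strand): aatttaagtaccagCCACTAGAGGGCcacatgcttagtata
site 40 (chr7:62464680-62464720, plus strand): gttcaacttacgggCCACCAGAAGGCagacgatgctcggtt

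A second set shows what the middle of the domain repeats. Between Snrpn, as annotated by GENCODE, and Ndn, 5 sites shared a nearly identical sequence on the plus strand, and a further pair shared another. The stretch closest to the consensus is in capitals.
site 9 (chr7:60238967-60239007): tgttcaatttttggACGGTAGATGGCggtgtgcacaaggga
site 11 (chr7:60387140-60387180): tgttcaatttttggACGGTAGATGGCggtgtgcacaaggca
site 12 (chr7:60488223-60488263): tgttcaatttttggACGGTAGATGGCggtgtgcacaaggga
site 13 (chr7:60617445-60617485): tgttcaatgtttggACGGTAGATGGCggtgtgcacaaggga
site 14 (chr7:60728500-60728540): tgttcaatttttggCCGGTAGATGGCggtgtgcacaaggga
site 7 (chr7:60224570-60224610): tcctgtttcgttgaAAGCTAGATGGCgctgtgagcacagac
site 10 (chr7:60374162-60374202): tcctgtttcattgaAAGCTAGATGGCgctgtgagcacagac

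CTCF sites were sparse across the domain as a whole. The 40 summits gave 1.20 per 100 kb, against 3.92 on chromosome 7 and 3.43 over all chromosomes analysed. Of 780 consecutive windows of the same length along the genome, 130 (16.7%) held 40 summits or fewer, and the median window held 95. With assembly gaps and 50-base words repeated on chromosome 7 left out of the length, the density was 1.57 per 100 kb in the domain and 4.68 on chromosome 7.

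The sparseness was already present before the reproducibility filter. The ranked list of candidate peaks held 2.49 per 100 kb in the domain, against 7.74 over all chromosomes. A candidate passed where its irreproducible discovery rate (IDR), the estimated share of calls that do not recur between replicates, was at most 0.05. In the domain 40 of 83 candidates passed, 48.2% (95% exact binomial interval 37.1 to 59.4), beside 44.3% of all 203931 candidates, so the share that passed was near the background. The 43 that did not pass had signals of 16.8 to 61.0.

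The sites present were not weak for this list. Signal here is the score the peak caller assigned to each peak, with no stated scale. The median was 224 in the domain (quartiles 104 and 434), against 165 in the whole list (quartiles 85.3 and 464). Of the 40 sites, 25 lay above the median of the list, while 1 reached the strongest 10%. By position in the GENCODE annotation, 23 sites were intergenic, 10 were intronic and 4 lay within 1 kb of a transcription start site (TSS). Noncoding exons held 2 and an untranslated region (UTR) held 1.

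**Figure D1:**
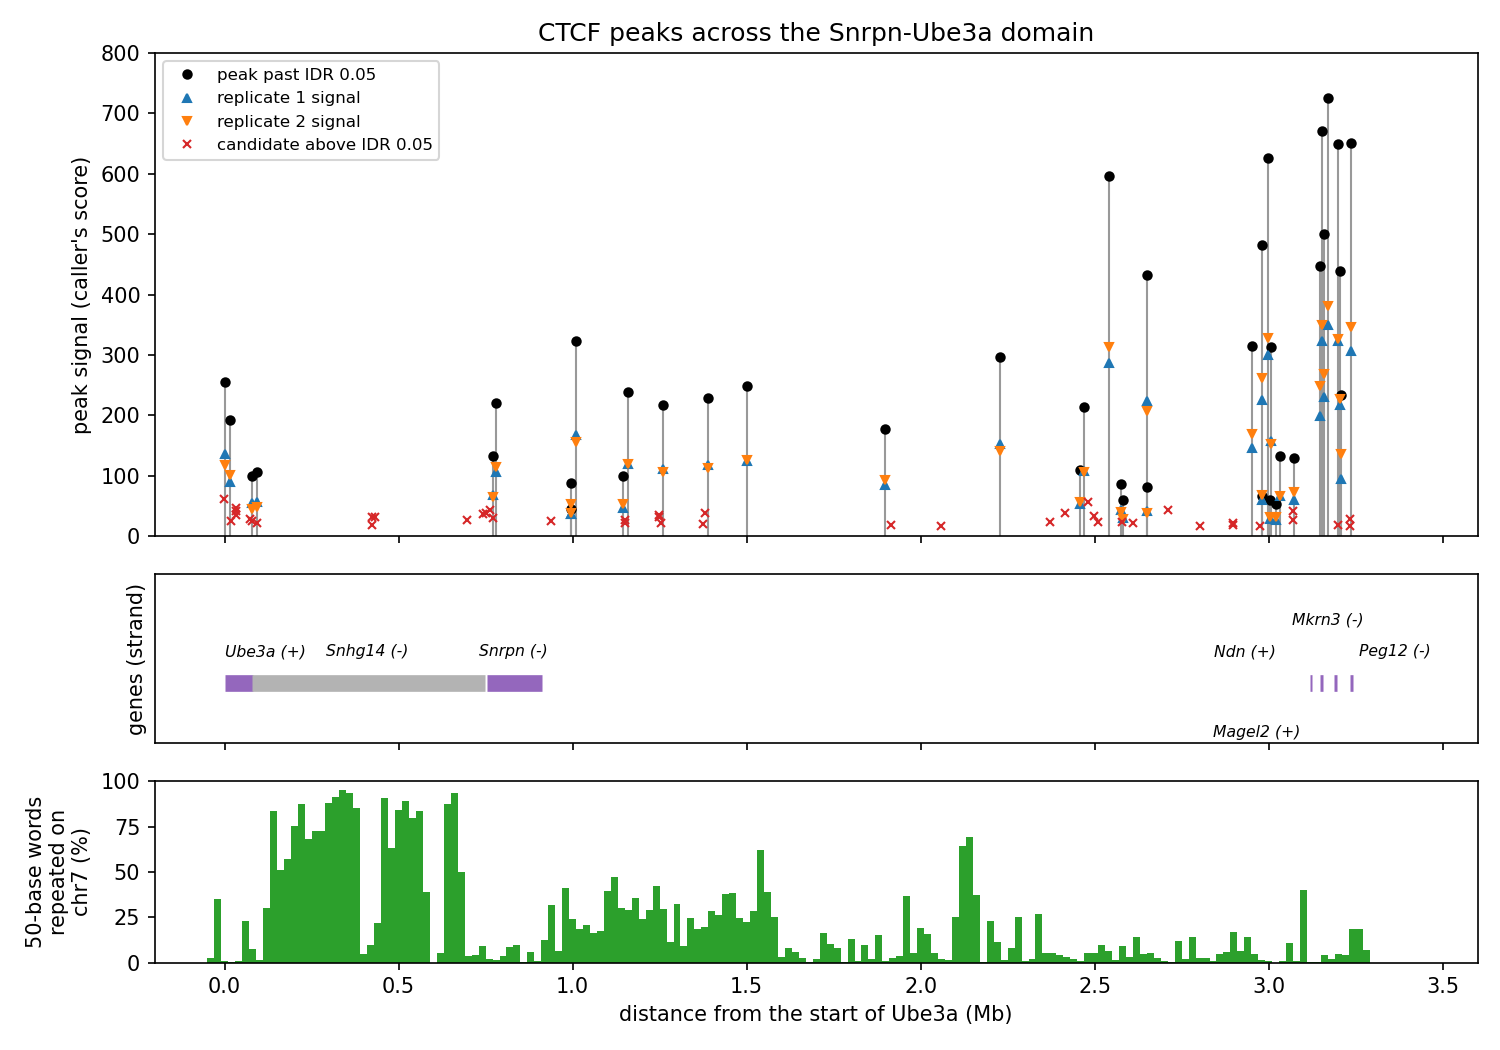
Signal of each CTCF peak (top; black for the peak, blue and orange for replicates 1 and 2, red crosses for candidates that did not pass), gene positions with strand (middle) and the share of 50-base words that occur more than once on chromosome 7, in bins of 20 kb (bottom), against the distance from the start of Ube3a in Mb. The highest signals, up to 726, stand at the Ndn-Peg12 end, and no black point stands in the interval of 680 kb that spans most of Snhg14.

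Ube3a and Peg12 had a CTCF summit within 1 kb of a TSS, whereas Snrpn, Ndn, Magel2 and Mkrn3 did not. That is 2 of 6 members, beside 38% of the 21755 protein-coding genes. The promoters without a summit were also without a lower-ranked call: no candidate peak of any IDR had its summit within 1 kb of a TSS of Snrpn, Ndn, Magel2 or Mkrn3. Repeated words made up at most 1.10% of the 2 kb around the start sites of the 6 members.

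Ube3a encodes an E3 ubiquitin ligase (ENSMUSG00000025326.12, chr7:59228750-59311536, plus strand). Site 1 had its summit at 59228996, 194 bp from a Ube3a TSS, with a signal of 136 in replicate 1 and 118 in replicate 2, and 255 for the peak of the combined list. Replicate 1 was the higher there, and the site was among the 5 of the domain whose replicates differed most. The best 12 bases at this summit had 2 mismatches to the consensus. A weaker candidate 400 bp from a Ube3a TSS (signal 61.0) had an IDR of 0.225 and did not pass.

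The Ube3a gene body held 2 further sites. Site 2, at 59245734, also lay in a noncoding exon of 9330162G02Rik, a gene that overlaps Ube3a, and had signals of 90.0 and 102 in replicates 1 and 2 (192 combined). Site 3, at 59307301, lay in the 3′ UTR of Ube3a with signals of 54.7 and 45.5 (99.3 combined). Signal was highest at the promoter and lowest at the 3′ end in both replicates. Of 9 candidates in the gene body, 3 passed (33.3%, beside 44.3% of all candidates).

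Snrpn encodes SmN, a core protein of the spliceosome that is abundant in brain (ENSMUSG00000102252.5, chr7:59982495-60140219, minus strand). Its promoter region is known as the imprinting centre, where methylation of the maternal chromosome is set in the oocyte. The nearest summit was that of site 6, at 60007913, in an intron and 2802 bp upstream of the TSS at 60005111. It had signals of 107 and 115 in the 2 replicates and 221 combined, close to the median of the domain. Site 5, at 60000898 in an intron, had signals of 68.3 and 64.5 (133 combined) and lay 4151 bp from the TSS of Snurf, the reading frame upstream of SmN on the same transcript.

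The 300 bases around the summit of site 6, the closest CTCF binding to the Snrpn start, are shown on the plus strand (chr7:60007763-60008062, RefSeq, GRCm38.p6). Capitals mark the summit with 5 bases on each side.
site 6 window: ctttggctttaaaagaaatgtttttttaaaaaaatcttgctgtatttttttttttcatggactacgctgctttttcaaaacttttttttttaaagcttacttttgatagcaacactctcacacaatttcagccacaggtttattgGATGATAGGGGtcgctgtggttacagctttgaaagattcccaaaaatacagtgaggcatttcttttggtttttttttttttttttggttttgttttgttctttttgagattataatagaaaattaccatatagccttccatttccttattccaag
The best 12 bases within 50 bp of this summit had 5 mismatches to the consensus, and the best at site 5 had 3.

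Ndn encodes necdin, a protein of the MAGE family expressed in postmitotic neurons (ENSMUSG00000033585.5, chr7:62346569-62350262, plus strand). No summit lay within 10 kb of its TSS, and the nearest, site 33, was 29290 bp away. Magel2 encodes another MAGE protein, which acts in endosomal protein sorting (ENSMUSG00000056972.6, chr7:62377010-62381640, plus strand). Site 33 lay 1151 bp upstream of the Magel2 TSS, just outside the limit of 1 kb, with its summit at 62375859. Its signals were 198 in replicate 1 and 249 in replicate 2 (448 combined), so replicate 2 was the higher. Site 34 followed 5596 bp downstream of the same TSS.

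Mkrn3 encodes a makorin RING-finger protein known for its part in the timing of puberty (ENSMUSG00000070527.3, chr7:62417593-62420139, minus strand). The nearest summit was that of site 37 at 62428533, 8394 bp upstream of the TSS, with signals of 324 and 327 (649 combined). The closest candidate of any rank, at 6870 bp, had a signal of 18.99 and did not pass.

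Peg12, also known as Frat3, encodes a GSK3-binding protein of the FRAT family (ENSMUSG00000070526.2, chr7:62461871-62464510, minus strand). Its promoter carried site 40, with the summit at 62464670, 160 bp upstream of the TSS. The signals were 307 in replicate 1 and 346 in replicate 2 (651 combined), and by combined signal it was the third strongest site of the domain. The 250 bases upstream of the Peg12 start are shown on the minus strand, in the direction of transcription (chr7:62464511-62464760, RefSeq, GRCm38.p6), with both consensus matches in capitals.
Peg12 upstream: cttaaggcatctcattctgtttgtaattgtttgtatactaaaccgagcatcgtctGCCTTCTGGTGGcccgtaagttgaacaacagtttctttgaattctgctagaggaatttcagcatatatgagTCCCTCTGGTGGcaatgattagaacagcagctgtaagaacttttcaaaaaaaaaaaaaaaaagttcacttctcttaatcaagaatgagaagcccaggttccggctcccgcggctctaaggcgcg
Both strands were searched, each match had at most 1 mismatch, and the matches did not overlap. The windows of 300 bases that RefSeq gives for the starts of the other 5 members held no match. Among 32817 such promoter windows of the table, 4.33% held a match of at most 1 mismatch.

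From the start of Ndn to the promoter of Peg12 (chr7:62346569-62465510, 119 kb), 8 sites gave 6.73 summits per 100 kb, against 0.995 in the remaining 3.22 Mb. This stretch is 3.57% of the length of the domain and held 20% of its sites. It was marked out after the values had been seen, so its figures are a description. Signals ran from 234 to 726 with a median of 575, against a median of 185 (45.8 to 626) for the other 32 sites. All 8 sites had a match to the consensus, compared with 7 of the other 32 (21.9%). The share was 50.3% of all summits, and 68.6% in the strongest of 4 equal signal classes of the list. No interval is given for a stretch chosen in this way. The sites are also not independent, as sites 37 and 38 share sequence, and so do sites 9, 11, 12 and 13, which have no match.

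Site 36 was the strongest of the domain, at 62400330 in an intron of Gm32061, with signals of 349 and 382 in the 2 replicates and 726 combined. It stood at percentile 90.6 of the whole list. Site 34, at 62382606 in an intron of Gm32061, reached 671 (323 and 349). In the order of combined strength sites 40 (651) and 37 (649) came next. Site 37 was the higher of this pair in replicate 1 (324 against 307), and site 40 was the higher in replicate 2 (346 against 327). Site 27, at 62227900 in the intergenic stretch before Ndn, was the fifth at 626 (300 and 328) and the strongest without a match, its best 12 bases having 3 mismatches.

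The matches near Magel2 and Mkrn3 pointed one way. Sites 33 to 38 all carried their match on the minus strand, and sites 39 and 40 on the plus strand. Sites 38 and 39, 3087 bp apart, carried the same 12 bases, CCACTAGAGGGC, on opposite strands and therefore faced away from each other. Their signals differed, with 216 and 227 at site 38 (440 combined) against 95.03 and 136 at site 39 (234 combined). Sites 37 and 38, 4932 bp apart, were copies of each other at 87.8% identity over 41 bases, and no further copy was found on chromosome 7.

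**Figure D2:**
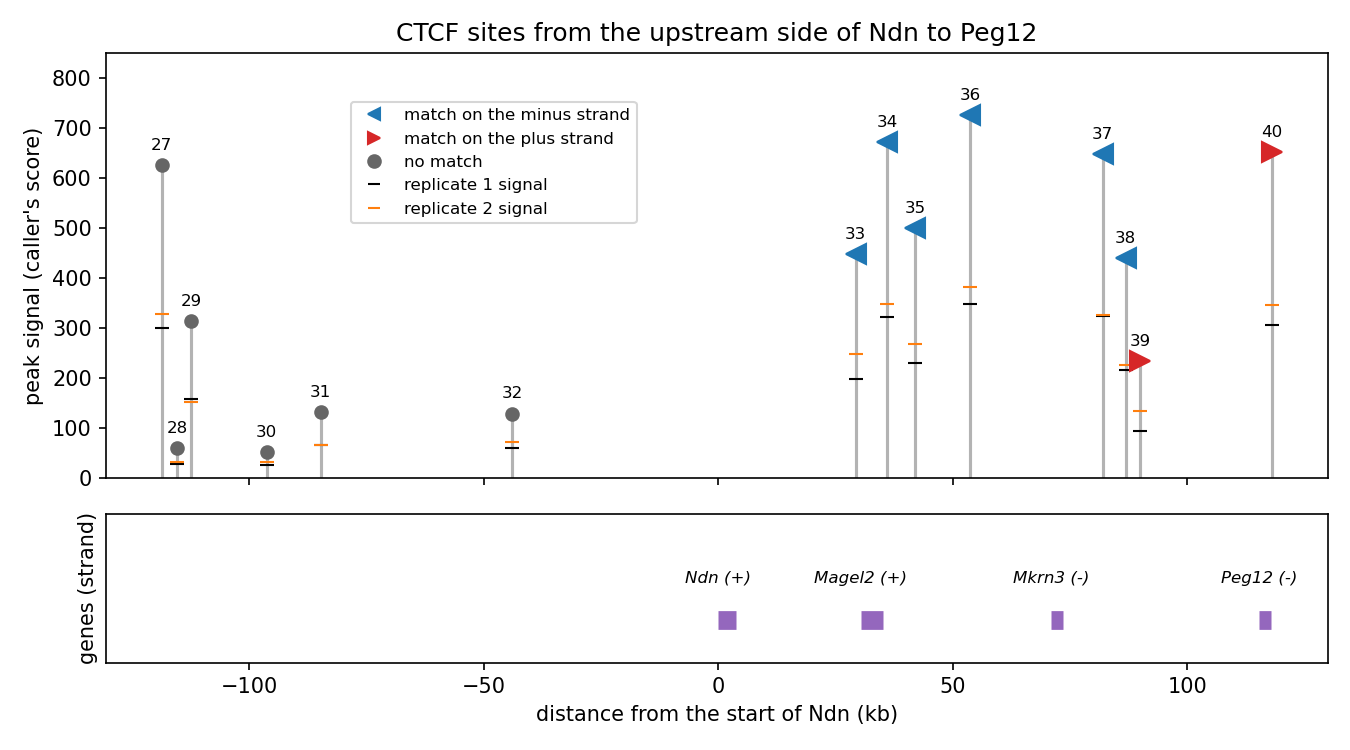
Signal of each site against the distance from the start of Ndn in kb, with arrowheads for the strand of the consensus match, grey circles for sites without one, dashes for each replicate and gene positions below. Sites 33 to 38 point left at signals of 440 to 726, sites 39 and 40 point right, and sites 27 to 32 before Ndn carry no match.

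Outside that stretch few sites carried the consensus. Over the whole domain, 15 of the 40 summits had a match of at most 1 mismatch within 50 bp, 37.5% (22.7 to 54.2), beside 50.3% of all summits, a share inside that interval. In windows 1 kb from the summits, 0 of 40 in the domain and 1.25% over the list had one. Exact matches were present at 5 sites (12.5%), beside 10.02% of the list, and these 5 were sites 33, 34, 36, 38 and 39.

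Sites with a match had the higher signals. Their median signal was 448, against 133 for the 25 without, and the corresponding medians of the list were 238 and 126. With the list cut into 4 equal classes of signal, 7 of the 8 sites in the strongest class had a match, where 68.6% of all summits of that class had one. In the next class 7 of 17 sites had one, where 51.4% of all summits did. Among the 15 sites in the weaker 2 classes, 1 had a match, where 36.1% and 44.9% of all summits had one.

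The match was wholly in repeat-masked sequence at 3 of the 15 sites. At sites 2 and 4 the match was CCAGAAGAGGGC, the most frequent 12 bases among all matches of the list. This sequence was found at 15917 summits, 35.1% of all summits with a match, and was masked at 99.8% of them. The shares of all summits given above include it. The other 12 matches were not wholly in masked sequence, and 4 of 40 summit windows were more than 50% masked, beside 27.4% of the list. The median GC content around the summits was 42.6%, beside 49.5%.

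Over the domain, 6 sites had their match on the plus strand and 9 on the minus strand. Of the 14 neighbouring pairs of sites with a match, 2 faced each other, 2 faced apart and 10 ran in the same direction. At the Ube3a end, sites 2 and 4 were the only ones of the first 13 with a match, both on the plus strand.

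The 5 sites with the repeated sequence were spread over 490 kb between Snrpn and Ndn, at intervals of 101 to 148 kb. That position rests on the GENCODE annotation, in which Snrpn reaches to 60140219. RefSeq also lists a minus-strand Snrpn start at 60450177, and sites 7 to 11 lie between these 2 positions. The 41 bases of the 5 sites were 95.1 to 100% identical. With up to 8 mismatches allowed, chromosome 7 held 5 copies of this sequence, all in the domain, and each had a CTCF summit. The signals were close to each other: 323 at site 9 (168 and 156 in replicates 1 and 2), 238 at site 11 (119 in both), 218 at site 12 (111 and 107), 228 at site 13 (117 and 114) and 249 at site 14 (125 and 125). Site 9 was the highest in both replicates, and the other 4 lay between 218 and 249. Site 14 alone came within 1 mismatch of the consensus, and the other 4 had 2 mismatches.

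The second repeated sequence had a summit at few of its copies. Sites 7 and 10 were 97.6% identical, and their sequence had 12 copies on chromosome 7, again all in the domain. Of these copies 2 had a summit, with signals of 88.2 and 99.4. Compared with the sequence of site 7, site 10 had 1 mismatch and the 10 copies without a summit had 3 to 8, whereas the 5 copies of the first sequence had at most 1 mismatch to that of site 9. Another 5 had a candidate within 100 bp that did not pass, and at the remaining 5 no candidate was listed. A pair of these copies preceded each of the 5 sites above, at 6.17 to 14.5 kb.

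Many words of this stretch were repeated. Of the 50-base words between sites 9 and 14, 26.99% occurred more than once on chromosome 7, beside 13.7% of the whole chromosome, and the share around single summits of both families ran from 0 to 40.4%. Whether reads from 1 copy were placed at another was not tested. The families were found after the values had been seen.

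**Figure D3:**
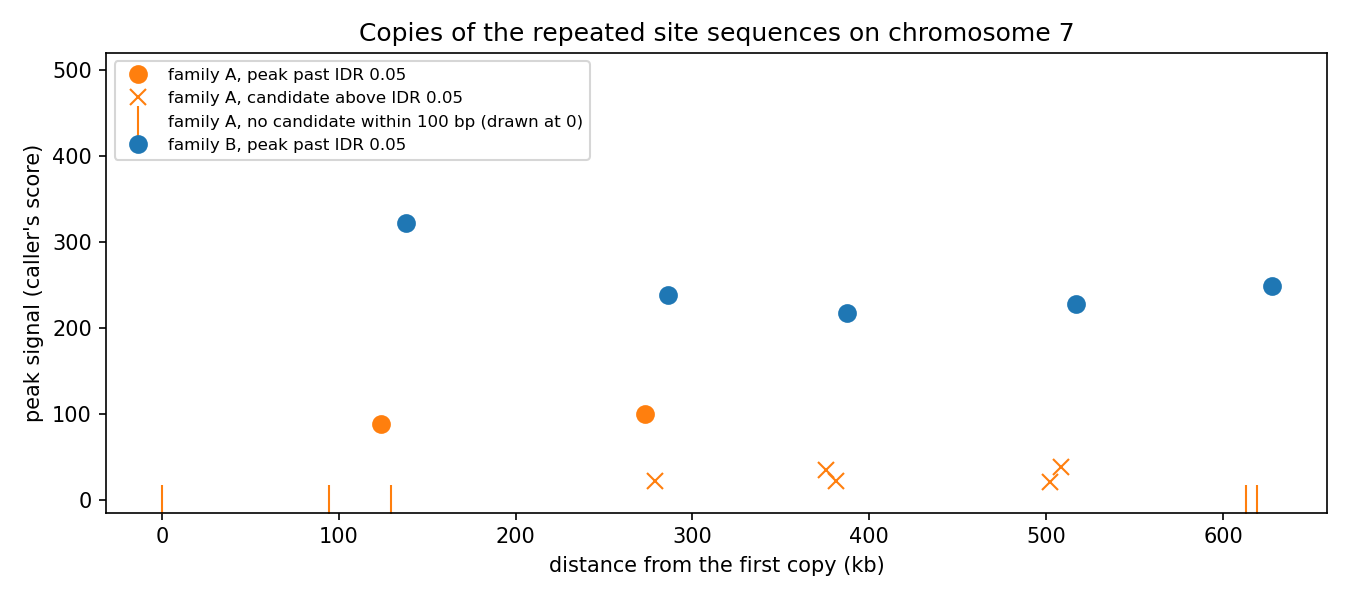
Signal at every copy of the 2 repeated sequences against the distance from the first copy in kb. Family B (sites 9, 11, 12, 13 and 14) has a peak at each of its 5 copies, at 218 to 323, and family A (sites 7 and 10) has peaks at 2 of 12 copies, at 88.2 and 99.4.

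The longest interval without a CTCF site ran for 680185 bp from site 4 (59320713) to site 5 (60000898). Snhg14 overlapped 96.3% of it, and it contained 217 annotated genes, of which 210 were snoRNA genes. Of all intervals, 135 of 90258 (0.150%) over all chromosomes and 13 of 5706 on chromosome 7 were at least as long. This interval was picked as the longest of a sparse domain, so these shares do not measure how unusual the domain is. The median distance between neighbouring summits was 18112 bp in the domain and 10692 bp in the list.

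On its Ube3a side the interval was bounded by site 4, with signals of 56.8 and 48.0 (106 combined), and on the other side by site 5 inside Snrpn. Site 4 lay in a noncoding exon, inside both Gm44829 and Snhg14, and was the only CTCF site in the Snhg14 gene body. Of the candidates, 9 fell within the interval. The strongest had a signal of 43.9 and the lowest IDR was 0.150. Within the interval 55.1% of the 50-base words were repeated on chromosome 7, beside 22.2% in the domain and 13.7% on the chromosome, and 50000 bases were assembly gap. The repeated share was uneven along the interval. It was 2.23 to 9.52% in the 20 kb bins centred 0.4 to 0.42 and 0.7 to 0.76 Mb from the start of Ube3a. Candidates were listed in both of these parts, and none passed. In the parts rich in repeated words and in the assembly gap, a stretch without CTCF and a stretch where reads could not be placed cannot be told apart. Read placement was not tested.

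Replicate signals in the domain lay close together. The log2 ratio of replicate 2 over replicate 1, less its median over the list, had an SD of 0.18 over the 40 sites, against 0.41 over all sites. For 35 of 40 sites it was within 0.25. Across the 40 sites, which share their libraries and are not independent replicates, Pearson's r of log2 signal was 0.986 and Spearman's rho was 0.982. The chosen sites had passed a filter on agreement between these replicates.

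The 3 highest ratios were those of site 7 (0.46, with signals of 36.6 and 53.6), site 39 (0.42) and site 33 (0.24), all higher in replicate 2. Site 33 was itself within the limit of 0.25. Site 3 had a ratio of -0.36, site 4 of -0.34 (56.8 and 48.0) and site 1 of -0.29, all higher in replicate 1. The 3 sites with the lowest ratios all lay at the Ube3a end. With 1 value per replicate no test was possible.

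**Figure D4:**
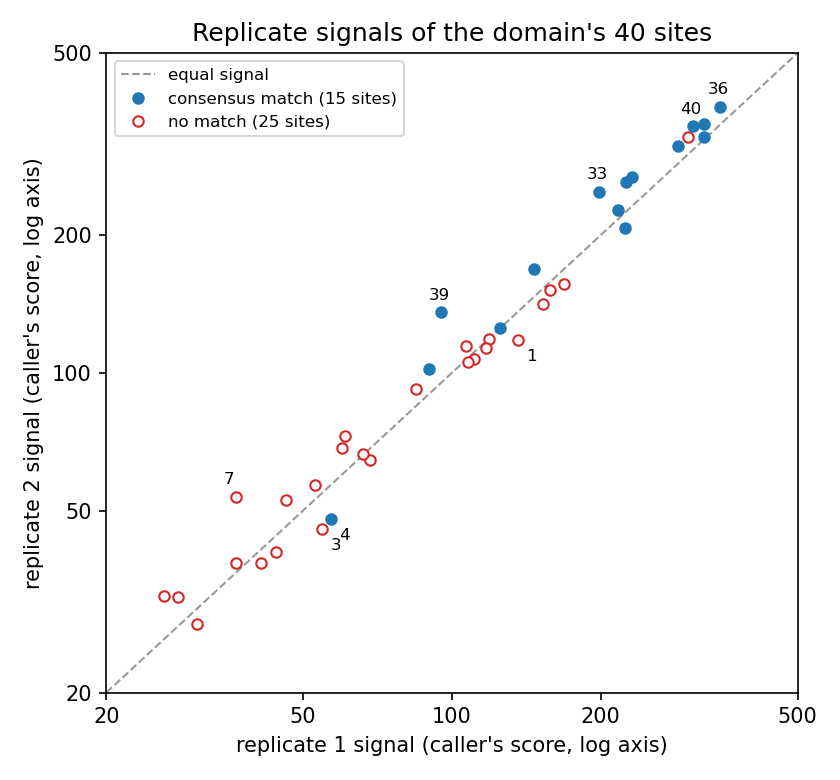
Replicate 2 signal against replicate 1 signal for the 40 sites on log axes, filled for sites with a consensus match and open for those without, with a dashed line at equal signal. Most points lie near the line, sites 7 and 39 lie above it, and the filled points are mostly at the upper right.

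The weakest sites were less stable across lists. Site 8 (45.8), site 30 (53.7) and site 28 (60.6) had the lowest signals, and site 8 overlapped site 7 and shared its replicate 1 peak, so those are not separate observations. All 30 sites with a signal of at least 100 had a summit within 100 bp in the lists of replicate 1 alone, replicate 2 alone and the pooled reads, while 2 of the 10 weaker sites did. Sites 21, 22, 28 and 30 were in none of those lists. At an IDR of 0.01, 38 sites remained, and sites 21 and 30 were lost.

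Other genes of the wider region, homologous to human 15q11-q13, were counted in the same way. Of 14 genes reported, 7 had a promoter summit, beside 38% of all protein-coding genes, and nothing particular to this list is read from that count. Among the GABA-A receptor subunit genes, Gabra5 had a peak of 482, and Gabrg3 had 2 summits with a strongest signal of 321. Chrna7, the alpha7 nicotinic receptor gene, had 689, and the transcription factor gene Klf13 had 4 summits with a strongest of 358. Herc2 (76.0), Nipa2 (70.9) and Cyfip1 (67.5) had weak ones. Snhg14, Snurf, Atp10a, Oca2, Nipa1, Tubgcp5 and Otud7a had none.

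Set beside 3 other imprinted domains, cut out in the same way, the Snrpn-Ube3a domain had the lowest density. The distal chromosome 7 domain of H19, Igf2 and Kcnq1 had 62 summits, 5.78 per 100 kb, with a median signal of 434. Dlk1-Dio3 on chromosome 12 had 33, 3.55 per 100 kb, with a median of 151, and Peg3 had 17, 4.05 per 100 kb, with a median of 215. The share of summits with a match was 43.5%, 51.5% and 41.2% in these domains, against 37.5% here and 50.3% of all summits. A promoter summit was present at 3 of 10, 2 of 6 and 4 of 5 of their listed genes, against 2 of 6 here and 38% of all protein-coding genes. Domains differ in length and gene content, and no test of these differences was made.

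**Figure D5:**
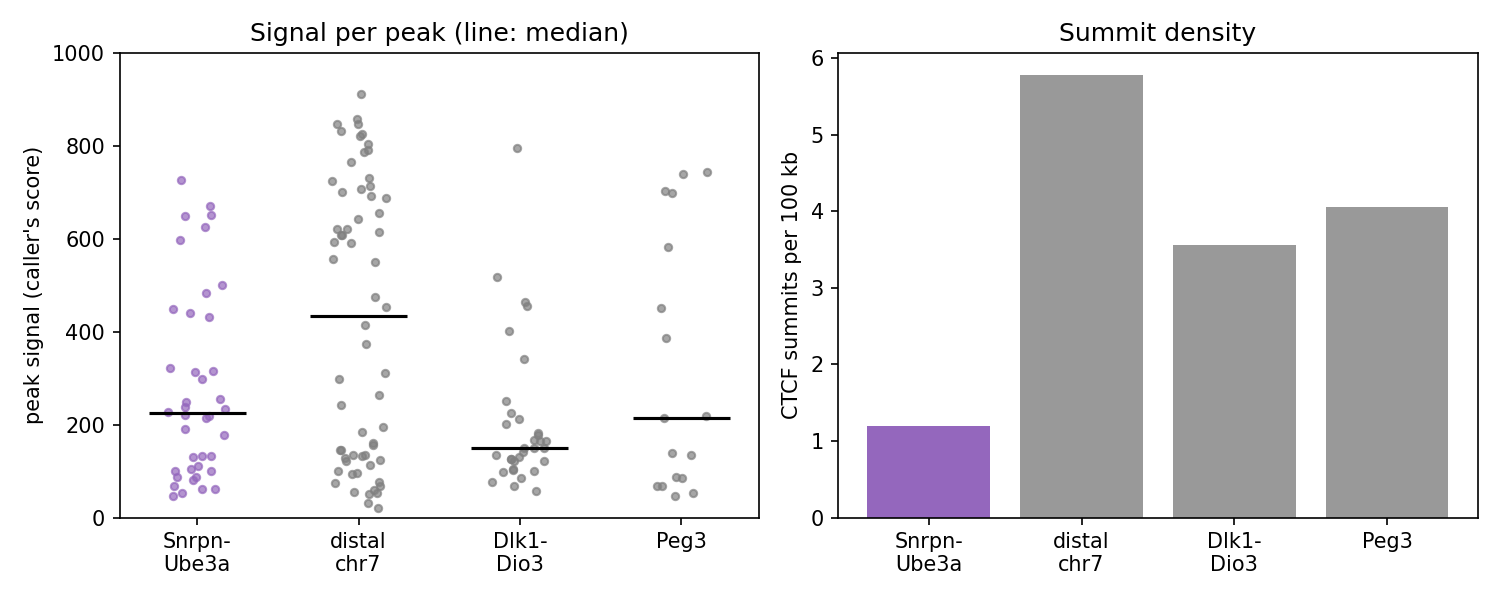
Signal of each peak with the median as a line (left) and CTCF summits per 100 kb (right) in 4 imprinted domains. The Snrpn-Ube3a domain has 1.20 summits per 100 kb, below 3.55 to 5.78 in the others, while its median signal of 224 lies between 151 and 434.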

How the data were processed

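CTCF ChIP-seq of mouse hippocampus was read from the peak lists deposited by the authors for 2 biological replicates. Coordinates refer to mm10, per the labels. The read aligner, the caller and versions were not given in the sources used here. A possible input control was not analysed here. Peak signals and IDR values rescaled to 1000 are scores that the authors deposited, and the authors gave q-values and IDR as -log10. Replicate signals are those of the replicate peaks assigned to each peak in the ranked between-replicate list. Main sites passed an IDR of 0.05 between replicates. Genes and TSSs were from GENCODE M21 basic, and coordinates are 1-based. Windows of 50 bp either side of a summit were searched for the consensus on both strands (at most 1 mismatch), and 50-base words were counted on chromosome 7. On simulated data, 100% of 1000 planted exact consensus sequences were found, and 0.3% of 1000 random windows with equal base frequencies matched. These values check the search code and give no rate of false matches in genomic sequence. Intervals are 95% Clopper-Pearson and cover counting error only. With read depth unknown, a precision for single peaks was not available. Sites were named by a rule: those in or within 1 kb of members, the nearest to each member, the 5 strongest, the 3 weakest, the 3 highest and 3 lowest replicate ratios, and those beside the longest interval. Other sites, among them 9 to 14, 21, 22 and 38, were named after their values were seen. The members and lists were chosen with earlier results of these data known. Of the list of other genes in the region, 1 is not reported here. Alternatives were another IDR, other lists, distances, flanks, mismatch limits and annotation. Computations ran in Python 3.11.15 with pandas 2.3.3, numpy 2.4.6, matplotlib 3.10.9 and scipy 1.17.1.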

Additional observations from a re-analysis of the deposited data

How the results depend on the processing

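The 40 summits became 33 to 41 under the other lists, IDR limits, flanks and the merging of overlaps, with 35 and 36 when replicate 2 or replicate 1 was left out. Density ran from 0.989 to 1.57 per 100 kb. Ube3a and Peg12 were the members with a promoter summit under each list, IDR limit and annotation. Magel2 joined them when any base of the peak counted, which gave 3 members, and Snrpn and Magel2 joined them within 5 kb, which gave 4. The share with a match was 12.5% for exact matches and 62.5% with up to 2 mismatches, beside 10.02% and 75.7% of all summits. The longest interval was 680 kb in every thresholded list (680.177 to 680.187 kb with 1 replicate left out). When all ranked candidates counted, candidates that did not pass divided this interval. The longest one then lay elsewhere, between Snrpn and Ndn, with 398 kb from site 14 (60728523) to site 15 (61126437). The ratio of the domain's median signal to that of the list was 1.36, 1.33 with overlapping peaks reduced to the strongest, and 1.30 to 1.33 with 1 replicate's signal left out. The 8 sites from Ndn to the Peg12 promoter were 8 in each list, an alternative chosen after seeing the data. No paired analysis was possible because the lists hold 1 value per biological replicate and none per technical library. Read depth, which is unknown, limits what can be said of weak sites.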
